A study of Mus musculus with 18 samples.

Results

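NaF cells, a mouse mammary carcinoma line, were compared between ordinary serum and charcoal-treated serum, without any added ligand. The comparison rests on 6 of the 18 arrays of the series, taken by their titles: 3 arrays of untreated cells in full medium (DMEM with 10% FBS) and 3 control arrays of cells in DMEM with 10% charcoal-treated FBS. The charcoal arrays came from cells moved to that serum 48 h before the time at which other cultures of the series received a ligand. The remaining 12 arrays, in 4 groups of 3, held cells given retinoic acid, TTNPB or GW1516 at 1 µM in charcoal-treated serum or palmitate at 10 µM in full medium, each for 6 h. The labels name no vehicle in either control group and do not say whether the 3 arrays of a group came from separate cultures, so the p-values reflect no more than the variation among these arrays, which may be technical. All cells were of 1 line, with no transgene or deletion named in the labels.

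Charcoal adsorbs small lipophilic molecules, so charcoal-treated serum holds less steroid hormone, thyroid hormone, retinoid and free lipid than the serum it was made from, while most proteins stay in it. Cells sense cholesterol through SCAP and the INSIG proteins: when membrane cholesterol is low, SREBP2 (Srebf2) is cut free and binds the sterol regulatory element of genes for cholesterol synthesis and uptake, and SREBP1 (Srebf1) does the same for fatty acid synthesis. Steroids, retinoids, thyroid hormone, oxysterols and fatty acids act through nuclear receptors, among them the glucocorticoid receptor, the RARs, the thyroid hormone receptors, the LXRs and the PPARs, each of which has well-known target genes.

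The deposited values of both sets were scaled apart, with array medians of 0.473 to 0.501 for the full-medium controls and 1.12 to 1.21 for the charcoal controls on the log2 scale. The same gap separated the 6 full-medium arrays of the series (0.473 to 0.548) from its 12 charcoal arrays (1.06 to 1.32). Serum and set therefore cannot be told apart in any value below. The 6 arrays were quantile-normalized before the fit. All levels below are on that normalized log2 scale and all differences are full medium minus charcoal, so that a positive difference means higher in full medium. After normalization the arrays of a group correlated at 0.980 to 0.985 (full medium) and 0.987 to 0.992 (charcoal) across all probe sets, and arrays of different groups at 0.941 to 0.951. A gene is called measurable when a group mean lies above 1.02 (full medium) or 0.93 (charcoal), the 95th percentile of 1409 receptor genes of the nose. This held for 11807 of 22180 genes. A gene is called higher or lower when limma's test for a difference over 1.5-fold gave an adjusted p below 0.05.

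By that test 2756 of 22180 genes differed (12.4%), of which 1065 were higher in full medium (4.8%) and 1691 were lower (7.62%). All of these were measurable, and among the 11807 measurable genes they made 23.3%, with 9.02% higher and 14.3% lower. These shares are the background for every list below. Where a list holds genes that were not measurable, both pairs of shares apply. In such bulk samples fewer cells of a kind and less RNA per cell cannot be told apart. The falls were deeper than the rises: 608 genes were lower by more than 4-fold and 171 by more than 8-fold, against 25 and 0 genes higher by as much. For 318 of the genes called lower and 11 of those called higher, the mean of the lower group was not above background. With background in place of such means, 579 genes were lower by more than 4-fold and 159 by more than 8-fold. The 3 arrays of one group lay beyond the 3 of the other for 48.1% of all genes and 70.1% of measurable ones, so that this separation alone says little about a gene. A test for any difference, with no minimum fold, called 36.1% of all genes, 20.6% higher and 15.5% lower. The median difference was 0.05 over all genes and 0.13 over the measurable ones. The split of calls depended on how the arrays were brought to 1 scale. It was 1065 higher and 1691 lower after quantile normalization, 437 and 1889 after cyclic loess, 66 and 3363 after centring on array medians, 4572 and 1375 after scaling by median and median absolute deviation, and 2 and 7345 on the deposited values. Of the 108 named genes that were called, the difference changed sign for none after cyclic loess or as percentile ranks within each array, for 6 after centring on medians, for 14 after scaling by median and median absolute deviation and for 35 on the deposited values. Calls lost after cyclic loess are given with each gene below. Several higher genes that held there, among them Ppard, Pnpla2, Thra and Cdkn2a, lost their call after centring on medians.

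**Figure D1:**
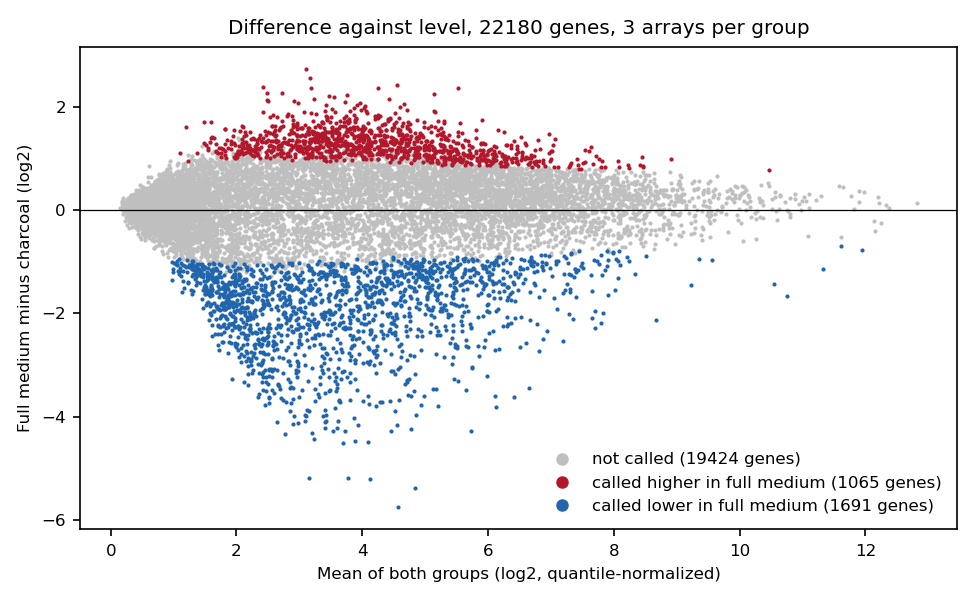
Difference between full medium and charcoal controls (y axis, log2) against the mean level of both groups (x axis, log2, quantile-normalized) for 22180 genes, with 3 arrays per group. The 1691 genes called lower reach differences beyond -5, whereas the 1065 called higher stay below 3.

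The other 12 arrays share none of these 6. The difference between the 3 palmitate arrays and the mean of the 3 ligand groups in charcoal serum had the same sign for 1064 of the 1065 genes called higher and for 1687 of the 1691 called lower. Over all genes 57.6% had a positive and 42.4% a negative difference there. These arrays belong to the same 2 sets, and they differ in ligand too. They show that the pattern recurred on other arrays of each set, not whether it belongs to the serum. Values of this second difference are given below as those of the other 12 arrays.

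Upstream sequences are shown first for 3 enzymes of cholesterol synthesis that were called, since this pathway is read out through a known promoter element. They are the 250 bases before the annotated start, from RefSeq on GRCm38.p6. Capitals mark the 8-base core of the sterol regulatory element, TCACCCCA, and the CCAAT box, CCAAT, each searched on both strands, so that a CCAAT box on the other strand reads ATTGG. The promoters lie at chr13:119690101-119690350 on the plus strand (Hmgcs1), chr1:169969206-169969455 on the minus strand (Hsd17b7) and chr19:6067851-6068100 on the minus strand (Tm7sf2).
Hmgcs1: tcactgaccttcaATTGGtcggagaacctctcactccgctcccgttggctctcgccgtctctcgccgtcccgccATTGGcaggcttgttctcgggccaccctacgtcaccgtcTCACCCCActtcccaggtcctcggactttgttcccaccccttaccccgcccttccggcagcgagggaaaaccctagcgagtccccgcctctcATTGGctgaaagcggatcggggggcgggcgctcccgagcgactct
Hsd17b7: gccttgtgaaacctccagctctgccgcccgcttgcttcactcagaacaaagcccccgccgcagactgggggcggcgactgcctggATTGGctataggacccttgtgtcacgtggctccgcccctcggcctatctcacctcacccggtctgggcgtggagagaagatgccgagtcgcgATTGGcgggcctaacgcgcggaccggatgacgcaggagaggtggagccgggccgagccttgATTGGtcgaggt
Tm7sf2: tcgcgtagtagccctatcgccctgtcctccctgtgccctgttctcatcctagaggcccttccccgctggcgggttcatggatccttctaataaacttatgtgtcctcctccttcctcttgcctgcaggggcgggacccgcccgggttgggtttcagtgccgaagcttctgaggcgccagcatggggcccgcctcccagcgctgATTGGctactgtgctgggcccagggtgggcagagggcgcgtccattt

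The Hmgcs1 promoter holds the exact core 137 bases before the start, together with 3 CCAAT boxes. Those of Hsd17b7 and Tm7sf2 hold no exact core and 3 and 1 CCAAT boxes. Of 13 cholesterol synthesis genes with a promoter in the table, 1 holds the core and all 13 hold a CCAAT box. In the list of uptake and SREBP2 control, 1 of 12 holds the core (Srebf2, 162 bases before the start) and 7 hold a CCAAT box. Over all 32851 promoters in the table, 1.34% hold the core and 33.8% a CCAAT box. The list counts are per gene, where a match in any promoter of the gene counts. The 13 synthesis genes have 16 promoters and the other 12 genes have 18. Counts per gene are therefore not directly comparable with these shares, which are per promoter. A match is a stretch of letters and not a measured site.

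The cholesterol synthesis enzymes did not move together. Of 16 measured genes of the list, 3 were higher in full medium, 3 were lower and 10 were not called, and their median difference was 0.15 (0.13 over all measurable genes), a sign that turned after cyclic loess, after centring on medians and on the deposited values. Hmgcs1, which makes HMG-CoA at the entry of the pathway, read 3.20, 3.68 and 3.45 in full medium and 4.78, 4.61 and 5.07 in charcoal serum. Every full-medium array was below every charcoal array, a 2.6-fold lower level in full medium (difference -1.38, SE 0.16, adjusted p = 0.00358). Hsd17b7, which reduces sterol 3-ketones, read 1.66, 1.94 and 1.97 against 4.53, 4.44 and 4.16 (difference -2.52, SE 0.15, adjusted p = 4.38e-06). Sc5d, a late desaturase of the sterol ring, read 3.26, 3.36 and 3.17 against 4.70, 4.59 and 4.74 (difference -1.41, SE 0.12, adjusted p = 0.00034). In these 3 enzymes the groups lay well apart.

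The opposite direction was seen in the other 3 called enzymes. Tm7sf2, a sterol C14 reductase, read 4.19, 4.20 and 4.15 in full medium and 2.67, 2.80 and 2.48 in charcoal serum (difference 1.53, SE 0.13, adjusted p = 0.000282). Mvd, the mevalonate diphosphate decarboxylase, was higher by 1.29 (SE 0.16, adjusted p = 0.00644) and Ebp, a sterol isomerase, by 1.13 (SE 0.14, adjusted p = 0.0122). The calls of Mvd (adjusted p = 0.656) and Ebp (0.661) were lost after cyclic loess, and that of Mvd also in a fit on all 18 arrays (0.214). Several classical SREBP2 targets were not called. Sqle, the squalene epoxidase, read 5.23, 5.12 and 5.32 against 5.84, 5.83 and 5.87, a difference of -0.62 (95% interval -0.83 to -0.41). Its arrays did not overlap between the groups, but the 1.54-fold difference was not shown to be over 1.5-fold. Fdft1 differed by 0.11, Cyp51 by -0.20, Lss by -0.20 and Fdps by 0.46. On the other 12 arrays the difference was -1.20 for Hmgcs1, -1.91 for Hsd17b7, 1.36 for Tm7sf2 and -0.08 for Sqle.

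Among 15 genes of cholesterol uptake, transport and SREBP2 control, 1 was higher and 2 were lower, with a median difference of -0.02. Mbtps2, the site-2 protease that frees SREBP from the membrane, read 3.39, 2.71 and 2.41 in full medium against 5.98, 5.71 and 5.25 in charcoal serum, 7.03-fold lower in full medium (difference -2.81, SE 0.25, adjusted p = 5.79e-05). Stard4, a soluble sterol carrier, was lower as well (difference -1.76, SE 0.18, adjusted p = 0.000595). Scap, the escort of SREBP, read 5.20, 5.23 and 5.19 against 4.10, 4.15 and 4.11 (difference 1.09, SE 0.10, adjusted p = 0.00294), a call lost after cyclic loess (adjusted p = 0.722). The regulators Insig1 (-0.20), Insig2 (-0.42) and Srebf2 (0.50) were not called.

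**Figure D2:**
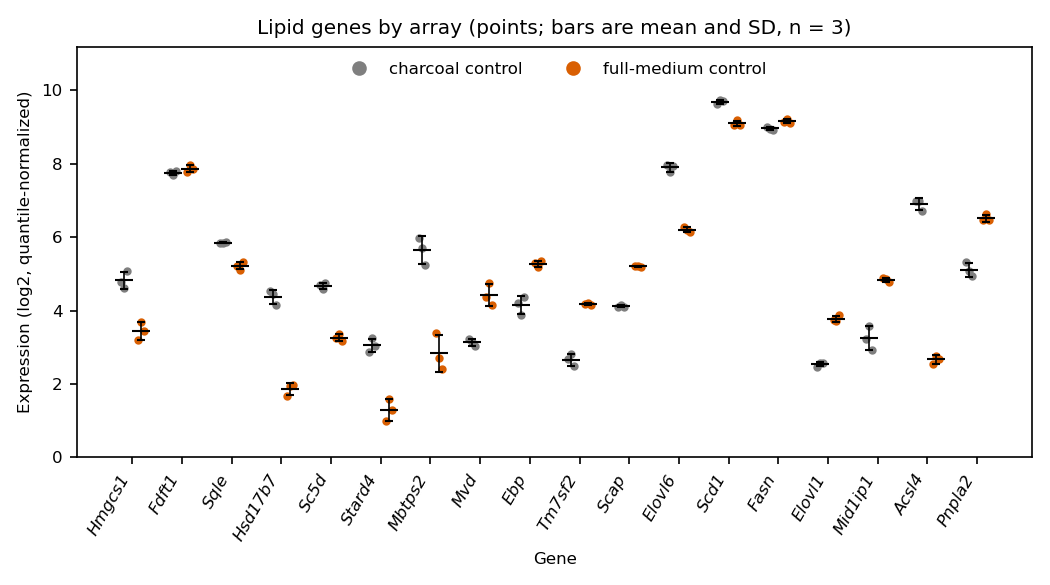
Levels (y axis, log2, quantile-normalized) of genes of cholesterol and fatty acid metabolism on each of the 6 arrays. Points are arrays and bars the mean and SD of 3. Hmgcs1, Hsd17b7, Sc5d, Stard4, Mbtps2, Elovl6 and Acsl4 lie lower in full medium, whereas Tm7sf2, Scap, Elovl1, Mid1ip1 and Pnpla2 lie higher.

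In fatty acid synthesis and desaturation 3 of 20 measured genes were higher and 1 was lower (median difference 0.09, negative on the deposited values and -0.01 after centring on medians and after cyclic loess). Elovl6, a microsomal elongase of saturated fatty acids, read 6.29, 6.20 and 6.14 in full medium and 7.98, 7.77 and 7.95 in charcoal serum, a 3.23-fold lower level (difference -1.69, SE 0.08, adjusted p = 2.8e-06). Mid1ip1, a partner of acetyl-CoA carboxylase, was higher by 1.59, Elovl1 by 1.24 and Elovl7 by 1.12, both elongases, and the calls of Elovl1 (adjusted p = 0.121) and Elovl7 (adjusted p = 1) were lost after cyclic loess. Several central genes of the pathway were not called. Scd1, the stearoyl-CoA desaturase, read 9.07, 9.18 and 9.07 against 9.62, 9.74 and 9.70, a difference of -0.58 (95% interval -0.69 to -0.47), which was called lower after cyclic loess (adjusted p = 0.0171). Fasn differed by 0.20, Acly by 0.10, Acaca by -0.52 and Srebf1 by 0.63. On the other 12 arrays the difference was -1.29 for Scd1 and -2.40 for Elovl6.

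None of the 9 measured LXR genes was called by limma with the minimum fold. At an unadjusted p below 0.05 in that test 1 was higher and 0 lower, and with no minimum fold 2 were higher and 1 lower. Abca1 and Abcg1, the cholesterol exporters that LXR switches on, had differences of opposite sign, -0.89 (adjusted p = 0.329) for the first and 0.80 (adjusted p = 0.118) for the second. Apoe, Pltp and Smpdl3a were not measurable.

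Of 20 measured genes for burning fatty acids in mitochondria, 3 were higher in full medium and none was lower (15% higher, against 9.02% of measurable genes), with a median difference of 0.33, still positive at 0.13 after cyclic loess and 0.03 after centring on medians, and negative at -0.65 on the deposited values. Acadvl, the very long chain acyl-CoA dehydrogenase, was higher by 1.46, Echs1, the short chain enoyl-CoA hydratase, by 1.43, and Eci1, an enoyl-CoA isomerase, by 1.27. Echs1 read 5.42, 5.65 and 5.77 in full medium and 4.07, 4.27 and 4.21 in charcoal serum (SE 0.12, adjusted p = 0.000362). The call of Acadvl was lost after cyclic loess (adjusted p = 0.233). At an unadjusted p below 0.05 in the same limma test 5 were higher and 0 lower, and with no minimum fold 12 were higher and 1 lower. Cpt1a, which admits fatty acids to the mitochondrion, differed by 0.04 and was not called.

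Of 24 measured PPAR genes, 4 were higher and 2 lower, with 8 not measurable. These shares were 16.7% and 8.33%, against 9.02% and 14.3% of measurable genes and 4.8% and 7.62% of all genes. Ppard, the fatty acid receptor PPARδ itself, read 6.01, 6.22 and 6.11 in full medium and 4.97, 4.67 and 4.71 in charcoal serum, 2.51-fold higher (difference 1.33, SE 0.11, adjusted p = 0.000499). Its difference on the other 12 arrays was 0.96. The usual reporters of PPARδ activity were not called: Pdk4, which restrains pyruvate oxidation, differed by -0.24, Plin2, a droplet coat protein, by 0.43, and Angptl4 was not measurable. Pdk4 lay near background, at 0.82 in full medium and 1.06 in charcoal serum, so its missing call says little. Besides Acadvl, the higher genes were Ech1 (1.27) and Acot2 (1.10), and the call of Acot2 was lost after cyclic loess (adjusted p = 0.465). The lower ones were Klf10 (-1.23) and Pdpk1 (-1.41), the kinase that activates AKT.

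For uptake and storage, 2 of 27 genes were higher and 2 lower. Acsl4, which activates arachidonic and other polyunsaturated fatty acids, had the largest difference of all lipid genes listed: 2.55, 2.77 and 2.68 in full medium against 7.0, 6.98 and 6.71, 18.8-fold lower (difference -4.23, SE 0.12, adjusted p = 2.61e-08). Mfsd2a, a lysophospholipid carrier, was also lower (-1.25), but on the other 12 arrays its difference was 0.13. Both called lipases were higher. Pnpla2, the adipose triglyceride lipase, read 6.46, 6.62 and 6.46 against 5.31, 5.07 and 4.95 (difference 1.40, SE 0.11, adjusted p = 0.000253), and Lipe, the hormone-sensitive lipase, was higher by 1.32, a call lost after cyclic loess (adjusted p = 0.0985). Fabp5, the fatty acid-binding protein in the title of the series, differed by 0.39 and was not called.

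In the list of glucocorticoid receptor targets, 3 of 25 measured genes were higher and 2 lower, with 21 of the 25 measurable. These shares were 12% and 8%, against 9.02% and 14.3% of measurable genes and 4.8% and 7.62% of all genes. The median difference was 0.22, negative after centring on medians (-0.21) and on the deposited values (-0.89). Nr3c1, the glucocorticoid receptor, read 1.18, 1.58 and 1.32 in full medium and 4.27, 4.30 and 4.25 in charcoal serum, 7.54-fold lower (difference -2.91, SE 0.14, adjusted p = 7.78e-07). Its difference on the other 12 arrays was -3.60. Per1, a clock gene that glucocorticoids induce directly, read 6.96, 6.93 and 6.90 against 5.22, 5.38 and 5.54, 2.93-fold higher in full medium (difference 1.55, SE 0.10, adjusted p = 2.64e-05).

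Tsc22d3, the glucocorticoid-induced leucine zipper, read 3.47, 3.50 and 3.73 in full medium and 2.32, 2.59 and 2.38 in charcoal serum (difference 1.14, SE 0.14, adjusted p = 0.0136). Arrdc2, an arrestin-domain gene, was higher by 1.26 (SE 0.16, adjusted p = 0.00821). The calls of Tsc22d3 (adjusted p = 0.435) and Arrdc2 (0.686) were lost after cyclic loess, and that of Tsc22d3 in 3 of the 6 fits that left out 1 array. Fkbp5, a receptor co-chaperone and a standard readout, read 3.15, 2.95 and 2.93 against 2.21, 2.44 and 2.24, a difference of 0.71 (95% interval 0.40 to 1.02) that was not called. Sgk1 (-0.26), Klf9 (-0.28), Ddit4 (-0.08) and Dusp1 (0.56) were not called either. Cavin2, a coat protein of caveolae, was lower (-1.74).

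In the retinoid list, 2 of 19 measured genes were higher and 2 lower, and 6 were not measurable. The 2 receptor genes that were called went opposite ways. Rara, which encodes RARα, read 4.38, 4.62 and 4.72 in full medium and 2.42, 2.40 and 2.25 in charcoal serum, 4.64-fold higher (difference 2.22, SE 0.14, adjusted p = 6.88e-06). Rarb, the receptor gene that retinoic acid induces, read 0.48, 0.60 and 0.33 against 2.35, 2.0 and 1.96 (difference -1.63, SE 0.15, adjusted p = 0.00033). Its full-medium level was under the background of the receptor genes of the nose, so its difference is one against background, at least 2.12-fold lower. Plat, the tissue plasminogen activator and a retinoid-induced gene, was higher by 1.71, and Nrip1, a receptor corepressor, was lower (-1.39). Nrip1 in full medium was not above background either, so that it was at least 2.57-fold lower. Cyp26b1, which breaks down retinoic acid, differed by 0.71, Rarg by 1.00, Tgm2 by 0.73 and Crabp2 by -0.15, none of them called. Crabp2 lay near background, at 0.83 in full medium and 0.99 in charcoal serum. Cyp26a1, Dhrs3 and Lrat were not measurable. Rara differed by 1.79 and Rarb by -2.44 on the other 12 arrays.

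Thyroid, vitamin D and androgen signalling gave 2 higher and no lower genes of 13 measured, of which 7 were measurable. Thra, a thyroid hormone receptor, read 3.97, 4.14 and 4.05 in full medium against 2.65, 2.88 and 2.45 (difference 1.39, SE 0.14, adjusted p = 0.00151). Rxra, the shared partner of the RARs, PPARs, LXRs and thyroid hormone receptors, read 4.24, 4.13 and 4.08 against 2.86, 2.68 and 2.77 (difference 1.38, SE 0.12, adjusted p = 0.000657), a call lost after cyclic loess (adjusted p = 0.0618). The thyroid target Hr (0.81) and the vitamin D receptor Vdr (0.82) were not called, and Cyp24a1 and Dio1 were not measurable.

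For estrogen, progesterone and prolactin, 1 of 19 genes was higher and 1 lower, both of them cytokine-signalling inhibitors: Socs3 by 1.40 and Socs2 by -1.86. Socs2 varied in full medium, at 4.27, 5.40 and 4.49 against 6.60, 6.53 and 6.60 (SE 0.23, adjusted p = 0.00179). Esr1, Esr2, Pgr and Elf5 were not measurable, and the estrogen target Greb1 differed by 0.00. Among NRF2 and aryl hydrocarbon receptor genes 2 of 15 were higher and 2 lower. Ahr, the receptor itself, read 2.84, 2.28 and 2.08 against 3.68, 4.04 and 4.11 (difference -1.54, SE 0.20, adjusted p = 0.00475), and its target Tiparp was lower too (-1.59; at least 2.77-fold, with full medium not above background), whereas the targets Cyp1a1 (0.63) and Cyp1b1 (-0.95) were not called. Srxn1 (1.01) and Osgin1 (0.96), which guard against oxidation, were higher, with both calls lost after cyclic loess.

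**Figure D3:**
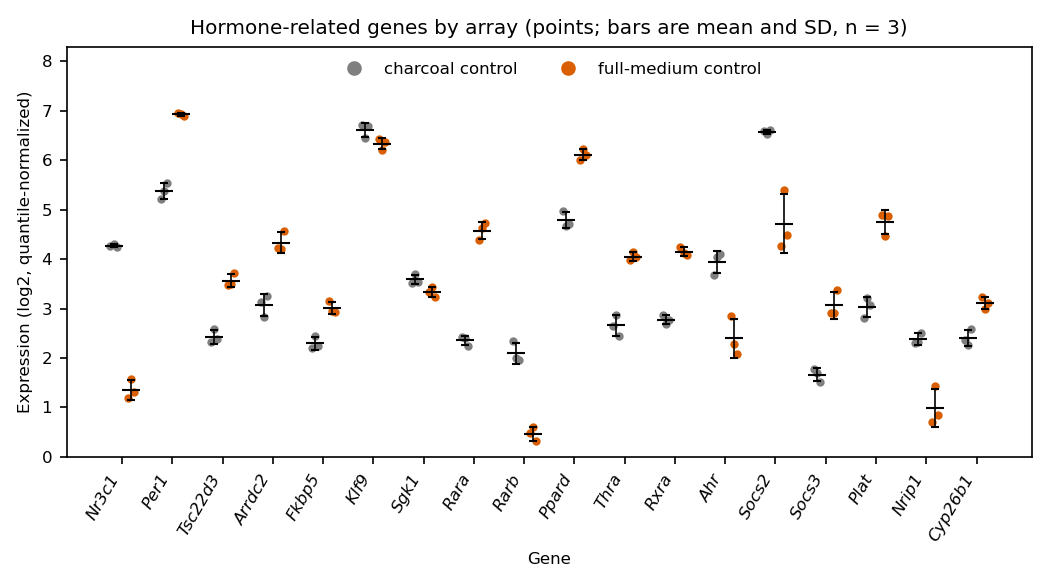
Levels (y axis, log2, quantile-normalized) of 18 genes of hormone and nuclear receptor signalling on each of the 6 arrays; points are arrays and bars the mean and SD of 3. Nr3c1, Rarb, Ahr, Socs2 and Nrip1 lie lower in full medium, and Per1, Rara, Ppard, Thra, Rxra and Plat higher, with no overlap of the groups.

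Serum also carries protein growth factors, which charcoal removes less than small lipids. Immediate early and SRF genes, the first to answer serum, gave 3 higher and no lower of 21 measured. The share higher was 14.3%, against 9.02% of measurable genes and 4.8% of all genes. Ier2 (1.36), Egr2 (1.20) and Zfp36 (1.17), which destabilises cytokine mRNA, were higher, and the calls of Ier2 (adjusted p = 0.227) and Zfp36 (0.88) were lost after cyclic loess. Fos (0.01), Egr1 (0.25), Myc (-0.53) and Srf (0.59) were not called. Fos lay near background, at 1.06 in full medium and 1.05 in charcoal serum, and so did Egr1, at 1.28 and 1.03. Of 13 genes of ERK feedback only the inhibitor Spred1 was called, and it was lower (-2.18). Of 27 growth factors and receptor tyrosine kinases only Kitl, the ligand of KIT, was called. It read 2.03, 2.29 and 2.0 in full medium against 4.40, 4.60 and 4.57 (difference -2.42, SE 0.14, adjusted p = 2.95e-06). Erbb2 (0.16), Igf1r (-0.32) and Insr (-0.19) were not called.

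FOXO targets mark withdrawal of growth factors. The list of FOXO factors, their targets and quiescence genes gave 4 higher and 1 lower of 19 measured. These shares were 21.1% and 5.26%, against 9.02% and 14.3% of measurable genes and 4.8% and 7.62% of all genes. The median difference of 0.31 turned to -0.31 after centring on medians and to -0.99 on the deposited values. On the other 12 arrays the median of the list was 0.0019. Txnip, a thioredoxin inhibitor that follows glucose and FOXO, read 9.44, 9.43 and 9.37 in full medium against 8.38, 8.40 and 8.48 (difference 0.99, SE 0.05, adjusted p = 9.89e-05). This difference was 0.24 on the other 12 arrays. Arrdc4 (1.36), Sesn1 (1.26) and Foxo4 (1.16), itself a FOXO factor, were higher and the pocket protein Rbl2 was lower (-1.86). The calls of Arrdc4, Sesn1 and Foxo4 were lost after cyclic loess (adjusted p = 0.079, 0.442 and 0.276).

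In the cell cycle lists the differences were uneven among genes that usually rise together in dividing cells. Of 25 mitotic genes, all measurable, 9 were lower in full medium and none was higher, or 36% against 14.3% of measurable genes, with a median difference of -0.21 (-0.34 after cyclic loess, but 2.35 after scaling by median and median absolute deviation). Mki67, which codes for the Ki-67 antigen, read 2.32, 2.70 and 2.78 in full medium against 6.34, 6.34 and 6.20, 12.9-fold lower (difference -3.69, SE 0.14, adjusted p = 8.4e-08). Kif11, the spindle kinesin Eg5, read 2.66, 3.18 and 2.96 against 6.56, 6.52 and 6.49 (difference -3.59, SE 0.14, adjusted p = 9.23e-08). Top2a, the topoisomerase that untangles chromosomes, read 3.84, 3.98 and 3.92 against 7.38, 7.28 and 7.52 (difference -3.48, SE 0.10, adjusted p = 2.61e-08). The spindle checkpoint kinases Bub1 (-3.48) and Ttk (-3.23), the centromere proteins Cenpe (-3.18) and Cenpf (-2.63), and Nusap1 (-1.94) and Ccna2 (-0.98) were also lower. In full medium Ttk and Cenpe were not above background, so that they were at least 8.4-fold and 6.75-fold lower. The call of Ccna2 was lost in the fit on 18 arrays (adjusted p = 0.252).

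The other 16 mitotic genes were not called, and several lay close to 0. Ccnb2, the mitotic cyclin B2, read 8.35, 8.43 and 8.35 in full medium and 8.37, 8.37 and 8.29 in charcoal serum, a difference of 0.03 (95% interval -0.09 to 0.16). Ube2c, which charges ubiquitin for the anaphase complex, differed by -0.04 (95% interval -0.15 to 0.08). The differences were 0.24 for Cdc20, 0.28 for Plk1, 0.38 for Aurka and 0.48 for Cenpa. With no minimum fold limma called 4 mitotic genes higher and 13 lower, and at an unadjusted p below 0.05 with the fold 0 were higher and 9 lower. Over the other 12 arrays the median of the list was -0.21, and Mki67 differed by -3.80 and Ccnb2 by -0.12. The 9 mitotic genes called lower span a median of 31.9 kb of the genome and those not called 11.7 kb, in the RefSeq table. The part of gene span in this result was not tested, beyond the fit with its trend removed that is described below.

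DNA replication gave 2 higher and 4 lower genes of 28 measured, near the background shares, and a median difference of -0.01 (0.38 on the other 12 arrays). Tyms, which makes thymidylate, read 1.75, 1.56 and 2.13 in full medium and 5.10, 5.10 and 4.51 in charcoal serum, 8.51-fold lower (difference -3.09, SE 0.20, adjusted p = 4.79e-06). Pola1 (-2.26), the catalytic subunit of the primase polymerase, Mcm4 (-1.05) and Pcna (-0.80) were lower. Pola1 in full medium was not above background and was at least 4.48-fold lower, and the call of Pcna was lost in the fit on 18 arrays (adjusted p = 0.572). Gins2 (1.00) and E2f1 (1.00) were higher, with both calls lost after cyclic loess and that of E2f1 in 5 of the 6 fits that left out 1 array. The other helicase subunits did not follow Mcm4: Mcm2 differed by 0.19, Mcm3 by -0.01, Mcm5 by -0.06, Mcm6 by -0.19 and Mcm7 by 0.08.

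Among 15 G1 cyclins and CDK inhibitors 3 were higher and 4 lower. Cdkn2a, the Ink4a and Arf locus, read 4.30, 4.41 and 4.54 in full medium and 2.69, 2.74 and 2.38 in charcoal serum (difference 1.81, SE 0.14, adjusted p = 7.74e-05). Its neighbour Cdkn2b (1.16) and Cdkn2d (1.21) were also higher, but not after cyclic loess (adjusted p = 0.158 and 0.694). Cdkn1b, the inhibitor p27, read 4.53, 4.67 and 4.52 against 5.75, 5.75 and 5.72 (difference -1.17, SE 0.10, adjusted p = 0.000955). The pocket proteins Rbl1 (-2.71) and Rb1 (-2.06) and the cyclin Ccnd2 (-1.08) were lower. Ccnd1 (0.30) and Cdkn1a (0.51) were not called. Of 14 p53 targets 3 were lower, Ccng1 (-2.66), Trp53inp1 (-1.50) and Mdm2 (-1.24), and none was higher. The share lower was 21.4%, against 14.3% of measurable genes and 7.62% of all genes.

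**Figure D4:**
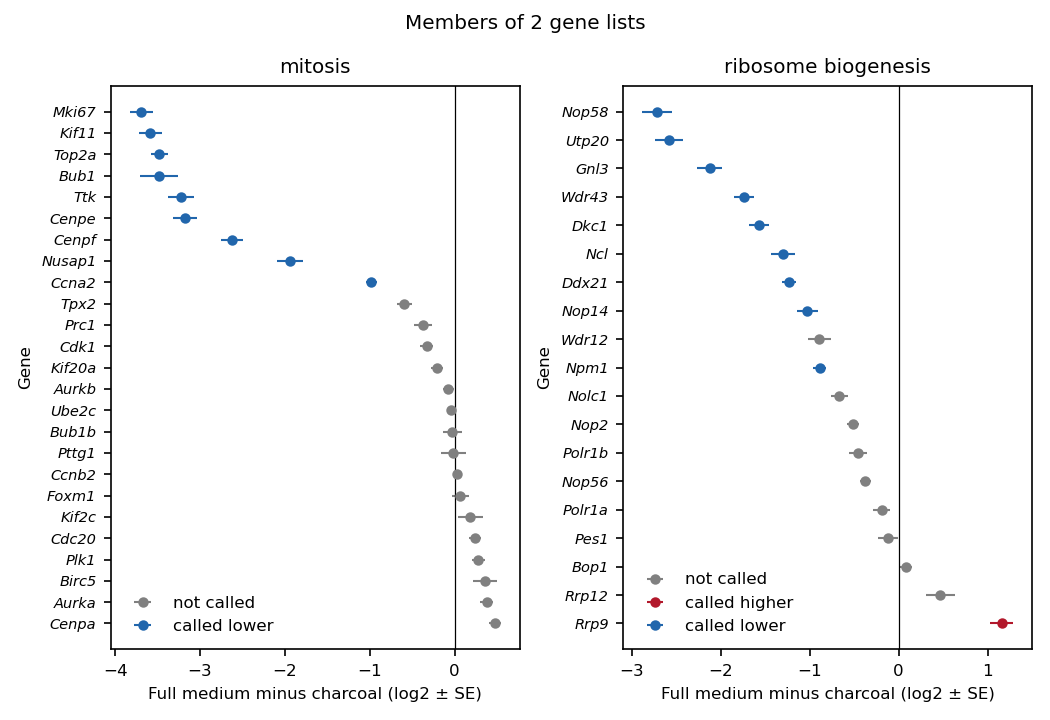
Difference between full medium and charcoal controls (x axis, log2, with its SE) for the 25 mitotic and 19 ribosome biogenesis genes measured, coloured by call. In both lists 9 genes were called lower, and the mitotic genes not called lie between -0.59 and 0.48.

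Of 19 measured genes of ribosome biogenesis, the nucleolar work that growing cells step up, 9 were lower and 1 was higher. These shares were 47.4% and 5.26%, against 14.3% and 9.02% of measurable genes, and the median difference was -0.89, which stayed negative after cyclic loess (-1.07) and after centring on medians (-1.18) and turned to 1.66 after scaling by median and median absolute deviation. On the other 12 arrays the median was -0.67. Nop58, a core protein of box C/D small nucleolar particles, read 2.66, 3.21 and 2.55 in full medium and 5.63, 5.48 and 5.47 in charcoal serum, 6.58-fold lower (difference -2.72, SE 0.17, adjusted p = 4.52e-06). Nucleolin (Ncl) read 6.12, 5.53 and 5.85 against 7.06, 7.06 and 7.26 (difference -1.30, SE 0.14, adjusted p = 0.00231). Utp20 (-2.58), Gnl3 (-2.13), Wdr43 (-1.74), Dkc1 (-1.57), Ddx21 (-1.24), Nop14 (-1.03) and Npm1 (-0.89) were lower as well. Rrp9 was higher (1.16). Nop56, the partner of Nop58, differed by -0.37 and was not called. The call of Rrp9 was lost after cyclic loess (adjusted p = 0.681), that of Nop14 in the fit on 18 arrays (0.0959) and in 3 of the 6 fits that left out 1 array, that of Npm1 in 1 of these (0.0504), and those of Npm1 and Ddx21 (adjusted p = 1 and 0.457) when all probe sets of a gene were averaged. Genes for cytosolic ribosomal proteins gave a median of 0.23 over 63 genes, with 5 higher and 1 lower, and many of them have near-identical pseudogene copies whose signal a probe set can share.

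Of 24 respiratory chain genes, all measurable, 4 were higher and 1 lower, or 16.7% and 4.17% against 9.02% and 14.3% of measurable genes. Their median difference was 0.34 (0.10 after cyclic loess, and -0.48 on the deposited values). Sdhb (1.60) and Uqcrfs1 (1.28), the iron-sulphur subunits of complexes II and III, Ndufb8 (1.18) and Cox4i1 (0.84) were higher and Ndufa4 (-1.01) was lower. The calls of Uqcrfs1, Ndufb8 and Cox4i1 were lost after cyclic loess (adjusted p = 0.225, 0.969 and 0.788). In hypoxia and glycolysis Ldha was higher (0.96) and Pdk1 lower (-1.06) of 19 measured. The call of Ldha was lost after cyclic loess and in all 6 fits that left out 1 array. In the ATF4 and unfolded protein list Ddit3, the stress factor CHOP, was higher (1.52) and Hsp90b1, an endoplasmic chaperone, lower (-1.55) of 18. In matrix and TGF-beta genes Postn (-2.23), Zeb1 (-1.50) and Tgfb2 (-1.01) were lower and none of 25 was higher. The share lower was 12%, against 14.3% of measurable genes and 7.62% of all genes. Of 20 interferon and NF-kB genes only Nfkb2 was called (1.59).

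The genes with the largest differences lay outside the pathway lists. The deepest falls were those of Sh3bgrl, a small SH3-binding protein, and Cops2, a subunit of the COP9 signalosome. Sh3bgrl read 1.54, 1.77 and 1.77 in full medium and 7.37, 7.50 and 7.45 in charcoal serum, 53.9-fold lower (difference -5.75, SE 0.11, adjusted p = 5.64e-09). Cops2 read 2.34, 1.99 and 2.10 against 7.52, 7.46 and 7.59, 41.8-fold lower (difference -5.38, SE 0.12, adjusted p = 9.03e-09). They were followed by Cd2ap (-5.21), an adaptor at the actin cortex, Esf1 (-5.19), Zfp948 (-5.18), the importin Ipo7 (-4.51), the retromer subunit Vps35 (-4.48), the nuclear pore protein Ranbp2 (-4.46), the clock factor Clock (-4.42) and the silencing factor Tasor (-4.33). In full medium Esf1 and Tasor were not above background, so that they were at least 26.6-fold and 15.2-fold lower and their place in this order is not fixed. With background in place of those means Esf1 was at -4.73, and Tasor came after Atad2 (-4.32), which is not among these 10. The place of Tasor among the 10 is therefore not fixed either.

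The largest rises were smaller. Rpl34, a ribosomal protein, read 4.73, 4.15 and 4.53 in full medium and 1.82, 1.68 and 1.71 in charcoal serum (difference 2.73, SE 0.16, adjusted p = 3.37e-06). Tagln2, an actin-binding protein, read 4.40, 4.51 and 4.46 against 1.96, 1.83 and 1.88 (difference 2.57, SE 0.12, adjusted p = 8.2e-07). Selenbp1 (2.43), Mrps16 (2.39), Myl6 (2.37), Ogfod2 (2.36), Adssl1 (2.36), Oxld1 (2.26), Rps18 (2.24) and Tmem202 (2.24) followed. The call of Rps18 was lost when all probe sets of a gene were averaged, as were those of Scap, Mid1ip1, Socs2, Socs3, Tiparp and Pdk1 above. Both ribosomal protein genes have copies that can share signal. Selenbp1 differed by 1.04 on the other 12 arrays and Rpl34 by 3.37.

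The differences moved with the length of genome a gene covers. Across 11749 measurable genes with a span in the RefSeq table, the difference correlated with the span at a Spearman rho of -0.33 and a Pearson r of -0.30 (on its log10), across genes, which are not independent replicates and share arrays and probe design. Genes called higher spanned a median of 11.8 kb, genes called lower 48.2 kb and genes not called 18 kb. Of genes from 3 to 10 kb, 14.2% were higher and 2.98% lower. Of genes from 100 to 300 kb, 2.78% were higher and 29.0% lower. The 197 genes over 300 kb did not extend this, with 3.05% higher, 20.8% lower and a median difference of -0.12, against -0.31 for genes from 100 to 300 kb. When the trend with span was removed before the fit, an alternative chosen after seeing the data, 2521 genes were called, 1180 higher and 1341 lower, and 1945 of them were among the 2756. In that fit the calls of Mvd, Ebp, Elovl1, Acadvl, Pdpk1, Nrip1, Arrdc2, Socs3, Ier2, Egr2, Zfp36, Foxo4, Txnip, Pdk1, Zeb1 and Tgfb2 were lost, as were those of Srxn1, Gins2, E2f1, Cdkn2d, Ldha, Uqcrfs1, Ndufb8, Cox4i1, Acot2, Cdkn2b, Rrp9, Krt8 and Krt18, and Srebf2 (0.99, adjusted p = 0.00579), Abcg1 (1.30, adjusted p = 0.000122), Fkbp5 (1.28, adjusted p = 0.00353) and Myc (-0.87, adjusted p = 0.0149) were called. The mitotic list still had a median of -0.40 and ribosome biogenesis one of -0.90.

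**Figure D5:**
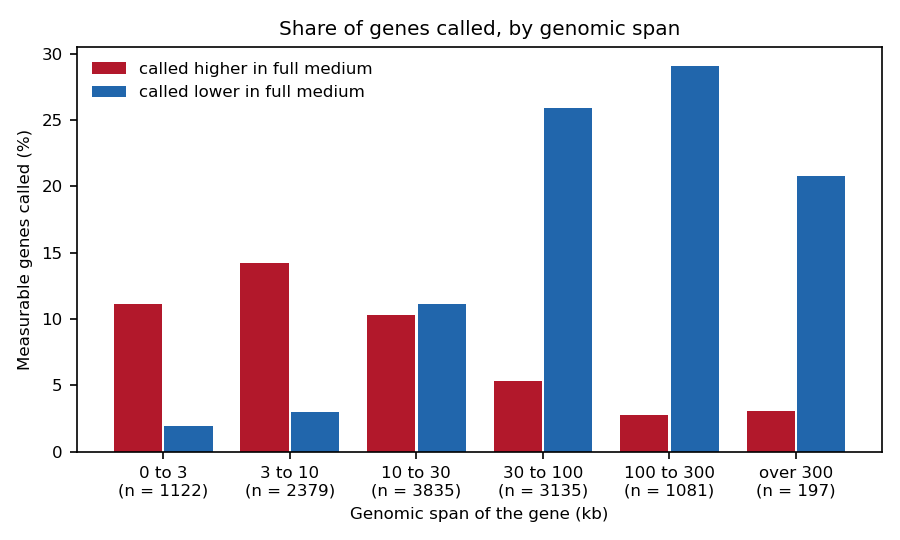
Percentage of measurable genes (y axis) called higher or lower in full medium, by the genomic span of the gene (x axis, in kb, with the number of genes per bin). The share called lower goes from 1.96% of genes under 3 kb to 29.0% of genes of 100 to 300 kb and is 20.8% over 300 kb, while the share called higher is 11.1%, 2.78% and 3.05% in the same bins.

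Cell identity was checked against epithelial and other markers. Of 13 luminal epithelial markers 9 were measurable. The luminal keratins Krt8 and Krt18 were higher in full medium, Krt8 by 1.28 (group means 2.46 and 1.18) and Krt18 by 0.95 (8.54 and 7.59), the latter a call lost after cyclic loess (adjusted p = 0.107), and the luminal markers Esr1, Foxa1, Elf5 and Cldn7 were not measurable. Of 7 basal markers 3 were measurable, of 8 fibroblast markers 3, of 7 leukocyte markers 2, of 5 endothelial markers 1, of 5 milk proteins 1 and of 6 adipocyte markers none, with no call in any of these lists.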

How the data were processed

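The values were the log2 values per probe set that the authors deposited for 18 Affymetrix arrays (biotin-labelled cRNA, per the labels' protocols). The submitters' processing notes name the program Partek. Its version, the background correction and the normalization are not given in the sources used here. Log2 as the scale is inferred from the span of the deposited values. The number of arrays limits the precision.

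Of 41345 probe sets, 23521 had 1 gene symbol, 1814 several and 16010 none, and only the first were used. Symbols were updated through a RefSeq table of GRCm38.p6 for 23328 probe sets. For 1082 genes with several probe sets the one with the highest mean was taken, which left 22180 genes. The 6 columns were quantile-normalized over all probe sets and fitted with limma 3.58.1 in R 4.3.3 (lmFit, then treat with a minimum fold of 1.5 and a variance trend, 2-sided). P-values were adjusted over all 22180 genes by the Benjamini-Hochberg method, with a threshold of 0.05. Intervals are 95% intervals of the fitted difference. The code was tested on simulated data.

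The groups, the 26 pathway lists (487 of 530 genes measured, 43 not used) and the way genes were picked for naming were chosen with earlier results of these data known. Named were the 10 largest differences in each direction among called, measurable genes whose arrays did not overlap and that were called alike in the fit on 18 arrays, with provisional gene models left out, up to 5 called members of each list (8 for cholesterol synthesis, glucocorticoid receptor targets and DNA replication), and a fixed set of well-known genes. List members that were not called are named as examples after their values were seen. No list was tested as a set. Alternatives were other scalings, variance models, probe set rules, folds and thresholds, a replicate block and each array left out in turn.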

Additional observations from a re-analysis of the deposited data

How the results depend on the processing

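Set and serum cannot be told apart, and the way the arrays are brought to 1 scale decides much of the direction. Against 2756 genes called (1065 higher, 1691 lower), the deposited values gave 7347 (2 and 7345), centring on array medians 3429 (66 and 3363), scaling by median and median absolute deviation 5947 (4572 and 1375) and cyclic loess 2326 (437 and 1889). With no minimum fold 8008 genes were called (4573 and 3435), and with a minimum of 2-fold 1225 (210 and 1015). Leaving out 1 array gave 2421 to 2589 genes, 876 to 986 of them higher and 1531 to 1603 lower. The fit on 18 arrays, dim probe sets left out, other probe set rules, variance models, array weights and an adjusted p below 0.01 gave between 2154 and 2958 genes. The replicate block gave 2711 (1026 and 1685), of which 2644 were shared with the 2756. Same-numbered arrays did not deviate together (correlations of -0.01, 0.02 and 0.06). This shows no shared effect of the number, but it cannot tell whether same-numbered arrays were prepared together. Under the block Ldha was the only named gene to lose its call (adjusted p = 0.0845). Of the 108 named genes that were called, 23 of 52 higher and 47 of 56 lower ones kept their call in cyclic loess, the fit on 18 arrays, the fit without the span trend, the block, every leave-one-out fit and the other probe set and variance settings. This count leaves out the deposited values, centring on medians and scaling by median and median absolute deviation. It also leaves out the 2-fold minimum, under which 46 of the 132 named genes lost their call. Among these were Ppard, Ech1, Eci1, Thra, Hmgcs1, Sc5d, Klf10 and Cdkn1b, counted here as kept. Of the higher genes so kept, most lost their call after centring on medians. They were Tm7sf2, Ppard, Ech1, Echs1, Eci1, Pnpla2, Plat, Thra, Cdkn2a, Ddit3, Nfkb2, Sdhb, Myl6 and Tmem202. Of the lower ones, Hmgcs1, Sc5d and Cavin2 lost theirs after scaling by median and median absolute deviation, besides the sign changes given below. The fit on 18 arrays ended the calls of Mvd, Elovl7, Srxn1, Ier2, Zfp36, Foxo4, Gins2, E2f1, Pcna, Ldha, Uqcrfs1, Acot2, Ccna2, Rrp9 and Nop14, and at least 1 leave-one-out fit those of Ldha, E2f1, Elovl7, Tsc22d3, Cdkn2d, Mdm2, Osgin1, Ebp, Gins2, Nrip1, Acot2, Nop14 and Npm1. Npm1 and Pcna also lost their calls without the variance trend. Differences of named genes that were called before or after rescaling changed sign under 3 scalings, and the cause was not tested. This counts 5 genes on the deposited values (Fabp5, Cyp26b1, Cpt1a, Fkbp5 and Fos) and 6 after scaling by median and median absolute deviation (Sqle, Insig1, Scd1, Klf9, Myc and Igf1r) that were called only after it. On the deposited values these were Tm7sf2 -0.42, Mvd -0.64, Ebp -0.46, Scap -0.52, Mid1ip1 -0.24, Elovl1 -0.77, Elovl7 -0.92, Acadvl -0.47, Echs1 -0.10, Eci1 -0.13, Lipe -0.66, Plat -0.15, Arrdc2 -0.67, Tsc22d3 -0.89, Socs3 -0.38, Thra -0.57, Rxra -0.60, Srxn1 -0.58, Osgin1 -0.094, Ier2 -0.45, Egr2 -0.36, Zfp36 -0.60, Arrdc4 -0.62, Sesn1 -0.48, Foxo4 -0.42, Gins2 -0.32, E2f1 -0.87, Cdkn2a -0.077, Cdkn2d -0.80, Ddit3 -0.43, Ldha -1.07, Nfkb2 -0.0096, Sdhb -0.091, Uqcrfs1 -0.55, Ndufb8 -0.65, Fabp5 -1.68, Cyp26b1 -1.37, Cpt1a -0.90, Fkbp5 -1.34 and Fos -0.86. After centring on medians they were Elovl1 -0.090, Elovl7 -0.24, Tsc22d3 -0.21, E2f1 -0.19, Cdkn2d -0.12 and Ldha -0.40. After scaling by median and median absolute deviation they were Elovl6 1.69, Klf10 1.74, Mfsd2a 2.42, Socs2 0.19, Spred1 0.50, Mcm4 2.46, Pcna 3.55, Cdkn1b 0.50, Ccng1 0.052, Hsp90b1 2.0, Pdk1 0.64, Tgfb2 1.61, Wdr43 1.02, Ndufa4 2.36, Sqle 1.53, Insig1 2.90, Scd1 4.78, Klf9 2.83, Myc 3.19 and Igf1r 2.07. These values cover the named genes only, and other called genes given above changed sign too. On the deposited values they were Acot2 -0.33, Cdkn2b -0.29, Rrp9 -0.49 and Krt8 -0.24. After scaling by median and median absolute deviation they were Ccna2 3.45, Ccnd2 3.08, Ncl 1.64, Npm1 3.77 and Ddx21 1.66. The median of a list changed sign on the deposited values in 21 of 26 lists, after centring on medians in 13, after scaling by median and median absolute deviation in 5, after cyclic loess in 7 and without the span trend in 3. Values near background have only a floor, as for the 8 genes marked so in the text.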
